A study of Mus musculus with 2 samples.

Results

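Transitional-like B cells of mouse blood were taken as the single-cell barcodes that carried RNA of Vpreb3 and Cd24a, 2 genes known from newly formed B cells, and no RNA of Fcer2a, which encodes the CD23 receptor of mature B cells. A barcode was a member when it had at least 800 UMIs (unique molecular identifiers, 1 per captured RNA molecule), at least 200 genes and at most 10% mitochondrial UMIs. It also needed at least 3 UMIs over the B cell genes Cd79a, Cd79b and Ms4a1, at most 1 over the T cell genes Cd3d, Cd3e and Cd3g, none of Fcer2a, at least 3 over Vpreb3 and Cd24a, and at most 2 over Zbtb32, Bhlhe41, Tppp3, Mzb1 and Atf3, genes that mark other B cells of this blood. This chose 163 of 9415 kept barcodes: 108 of 4190 in the mutant library and 55 of 5225 in the wildtype one. Mature B barcodes, used for comparison, passed the same gates with at least 1 Fcer2a UMI and with no limit on Vpreb3 and Cd24a, and numbered 390 and 406.

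The libraries came from peripheral blood mononuclear cells of female C57Bl/6 mice aged 10 weeks. In the mutants the gene of mevalonate kinase, Mvk, had a V377I allele over a del91 deletion allele (MvkV377I/del91), and the controls were wildtype (Mvk+/+). Blood of 3 mice per genotype was pooled, red cells were lysed, and live cells without the red cell antigen Ter119 were sorted for 1 droplet library per genotype. Genotype, mouse pool, library and batch label therefore coincide and cannot be told apart, no test between the libraries is possible, and all intervals in brackets are exact 95% intervals that cover counting error only.

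Transitional B cells are the stage between the bone marrow and the mature pool. They leave the marrow after assembling their antigen receptor, travel in blood to the spleen, and are there removed or rescued according to receptor signals and the survival factor BAFF. In mice they are known for high surface CD24 and CD93 and for little CD21 and CD23, which appear with maturation.

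In total 14513059 UMIs were counted for the mutant and 15385199 for the wildtype library, and both kept more barcodes than the 2000 cells targeted. Members were as deep as mature B barcodes: their median was 1540.5 UMIs and 819.5 genes in the mutant library and 1578 UMIs and 812 genes in the wildtype one, against 1555.5 and 1567 UMIs in mature B barcodes. Summed over members there were 181185 mutant and 99870 wildtype UMIs, on which the levels below rest as CPM, a gene's UMIs per 1000000 UMIs of its gate and library. The libraries shared 28 kept barcode sequences, and 1 member in each library was among them. Scrublet doublet scores above 0.2 marked 1 member in each library, and members were not removed for it. One mutant member stood apart with 132 UMIs of other lineages, 123 of them from natural killer (NK) cell genes, in 5830 UMIs; it is kept below and its effect is given where it bears on a value.

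Members made up a larger share of B cells in the mutant library. They were 9.18% (7.59 to 10.97) of the 1177 mutant barcodes that passed the B cell gates and 5.15% (3.90 to 6.65) of the 1068 wildtype ones, a ratio of 1.78 (1.28 to 2.51). Among all kept barcodes the shares were 2.58% (2.12 to 3.10) and 1.05% (0.794 to 1.37). B-gated barcodes as a whole were also more frequent in mutant blood, 28.1% (26.7 to 29.5) against 20.4% (19.4 to 21.6). Members with 5 or more UMIs of the pair Vpreb3 and Cd24a were 3.31% (2.37 to 4.50) and 1.59% (0.930 to 2.54) of B-gated barcodes, a ratio of 2.08 (1.15 to 3.92), and those with 3 or 4 had a ratio of 1.65 (1.09 to 2.52), so the mutant share was higher in both ranges and the intervals of the ratios overlapped.

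Shares of the other B cell gates were as follows. Mature barcodes took 33.1% (30.4 to 35.9) of B-gated barcodes in the mutant library and 38.02% (35.1 to 41.00) in the other, a ratio of 0.872 (0.757 to 1.004). Barcodes without Fcer2a and with fewer than 3 Vpreb3 and Cd24a UMIs had a ratio of 0.955 (0.841 to 1.09). Barcodes with more than 2 UMIs over Zbtb32, Bhlhe41, Tppp3, Mzb1 and Atf3 took 15.3% (13.3 to 17.5) and 12.5% (10.5 to 14.6), a ratio of 1.23 (0.976 to 1.55), which lay above 1 as in members. All 3 intervals include 1. Inside the mature gate, where Vpreb3 and Cd24a were not used, barcodes with 3 or more of their UMIs were 7.44% (5.04 to 10.5) of the mutant and 8.87% (6.29 to 12.1) of the wildtype library, a ratio of 0.839 (0.496 to 1.41). Free RNA of the pair was also higher in the mutant library: barcodes of at most 20 UMIs, which hold RNA from outside cells, had 91.03 and 41.3 CPM of Vpreb3 and 157 and 75.99 CPM of Cd24a. Among T-gated barcodes, which were chosen without use of the pair, 4 of 2051 mutant (0.195%) and 0 of 2596 wildtype barcodes reached 3 UMIs. The 0 allows a share of up to 0.142%. When every barcode was thinned to 800 UMIs before the gates were applied, 52 mutant and 25 wildtype members were left, 5.07% and 2.80% of B-gated barcodes, with a ratio of 1.81 (1.10 to 3.05).

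**Figure D1:**
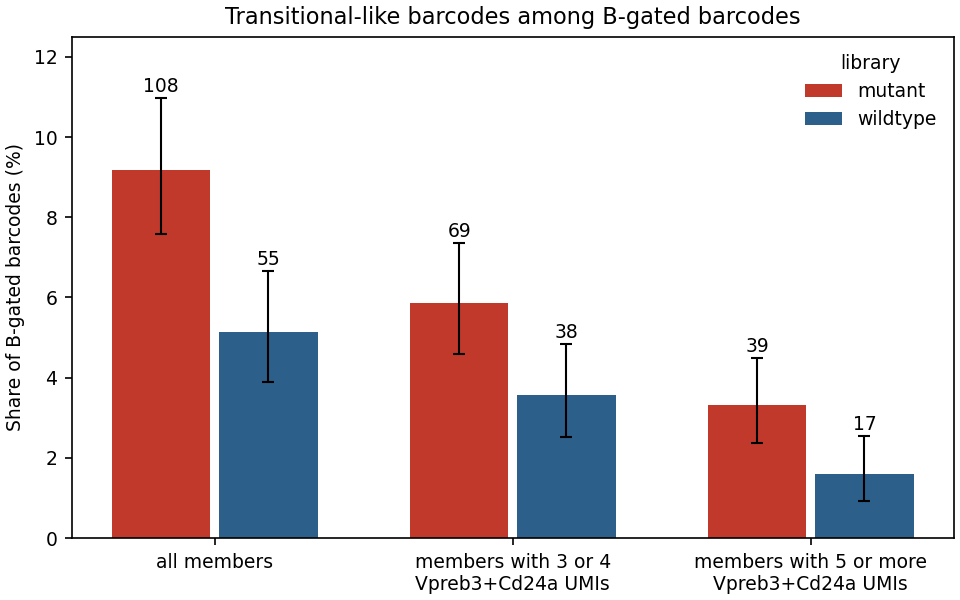
Share of B-gated barcodes (percent, y axis) that were transitional-like in the mutant (red) and wildtype (blue) library, for all members and for members with 3 or 4 and with 5 or more Vpreb3 and Cd24a UMIs; bars start at 0, whiskers are exact 95% binomial intervals and numbers above them count barcodes. The mutant bar is higher in each of the 3 pairs, at 9.18% against 5.15% for all members.

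Vpreb3 encodes a relative of the surrogate light chain that is held inside the cell and binds newly made antigen receptor heavy chains, and Cd24a encodes the surface protein CD24. Because they chose the members, their levels only describe the gate. Vpreb3 stood at 1539.9 CPM (1364 to 1732) in mutant and 1162 CPM (959.8 to 1393) in wildtype members, against 232 and 233 CPM in mature barcodes. Cd24a stood at 1347 CPM (1183 to 1527) and 1252 CPM (1042 to 1491), against 285 and 306 CPM. Both genes were seen together in 80 of 108 mutant members, 74.1% (64.8 to 82.03), and in 28 of 55 wildtype members, 50.9% (37.1 to 64.6). The sum over the pair ran from 3 to 23 UMIs in mutant members and from 3 to 12 in wildtype members, with a median of 4 in both.

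Vpreb3 lies on the plus strand of chromosome 10 (75943057 to 75949657, GRCm38), and its neighbour 5309 bases upstream on the same strand, with no gene between them, is Chchd10, which encodes a mitochondrial protein and stood among the 15 genes named as higher in members. Chchd10 was at 557 CPM (454 to 677) in mutant and 481 CPM (354 to 637) in wildtype members, against 266 and 283 CPM in mature barcodes, ratios of 2.09 (1.62 to 2.69) and 1.70 (1.21 to 2.34). The promoters of this pair are shown because both hold the octamer ATGCAAAT, the motif through which Oct factors act on immunoglobulin and other B cell genes. The RefSeq promoter table of GRCm38.p6 (250 bases before to 50 after a gene's start) was searched on both strands. The octamer is in 570 of 32851 promoters (1.74%), which belong to 27025 genes. Of 19 leading genes looked for, 13 had an entry and 2 of these hold it, Chchd10 and the gate gene Vpreb3. The first count is of promoters and the second of genes with a match in any promoter, so they are unlike measures. The matches, in capitals, start 83 and 70 bases before the Chchd10 start and 45 bases before the Vpreb3 start (there as its reverse complement ATTTGCAT); they describe the letters only, and the Vpreb3 start in this table lies inside the gene span given above. Both stretches are on the plus strand, chr10:75933043-75933072 for Chchd10 and chr10:75948244-75948273 for Vpreb3.
Chchd10: gctgATGCAAATggctgATGCAAATgcgca
Vpreb3: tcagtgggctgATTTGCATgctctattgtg

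The name was compared with 5 given marker genes that the gate did not use. These markers were chosen with earlier results of these data known, so they are no independent check. Ly6d, a surface protein that marks commitment to the B lineage, was at 5994 CPM (5643 to 6361) in mutant and 4596 CPM (4185 to 5036) in wildtype members and at 2464 and 2337 CPM in mature barcodes. Spib, a transcription factor of B cells, was at 546 CPM (444 to 665) and 391 CPM (278 to 534), against 204 and 150.5 CPM. Tifa, an adaptor that carries signals to NF-kB, was at 408 CPM (321 to 513) and 180.2 CPM (107 to 285), against 79.4 and 52.5 CPM. Members were thus higher than mature barcodes in both libraries for all of these 3 genes, with ratios of 2.43 and 1.97 for Ly6d, 2.68 and 2.60 for Spib, and 5.14 and 3.44 for Tifa.

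Fam129c and Sox4 were sparser. Fam129c, a B cell gene whose position overlaps Pgls on the same strand so that reads may be shared, had 34 UMIs in mutant and 10 in wildtype members, ratios to mature barcodes of 5.48 (3.11 to 9.83) and 4.27 (1.75 to 9.87). Sox4, a transcription factor needed early in the B lineage, had 25 UMIs in mutant members, 138 against 20.3 CPM in mature barcodes, but only 3 in wildtype members, where the ratio of 1.55 (0.286 to 5.57) shows no difference detectable at this depth. Cd93, the classical surface marker of transitional cells, had 7 UMIs in mutant and 0 in wildtype members. Taking 3 counts as the limit for 0 in 99870 UMIs gives 30.04 CPM. Of 10 genes listed for transitional cells, Ly6d, Spib, Sox4 and Cd93 among them, 6 had at least 50 UMIs over members and mature barcodes in each library. Of these, 3 had ratios above 1 in both libraries and 0 below, beside 35.8% and 23.4% of all such genes. Their median ratios were 1.90 and 1.24, and 1 was at least 2-fold higher in both. Summed over all members, the name therefore rests on the given markers Ly6d, Spib, Tifa and Fam129c in both libraries and on Sox4 in the mutant library alone.

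Counted per barcode, Spib was seen in 53.7% of mutant and 40.0% of wildtype members, in 25.6% and 22.4% of mature barcodes, and in 1.07% and 0.539% of T-gated barcodes, which were deeper (median 2156 and 2354 UMIs). Tifa was seen in 35.2% and 23.6% of members, 10.5% and 8.37% of mature and 0.780% and 0.693% of T-gated barcodes. Sox4 was seen in 13.9% of mutant members but in 5.45% of wildtype ones, close to the 4.12% of wildtype T-gated barcodes. With every barcode thinned to 800 UMIs, Spib remained in 35.2% and 23.6% of members against 13.3% and 12.1% of mature barcodes. Cr2, the gene of the maturation marker CD21, was seen in 4.63% of mutant members against 11.3% of mature barcodes, and in 14.5% against 15.8% in the wildtype library, where the shares were close.

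**Figure D2:**
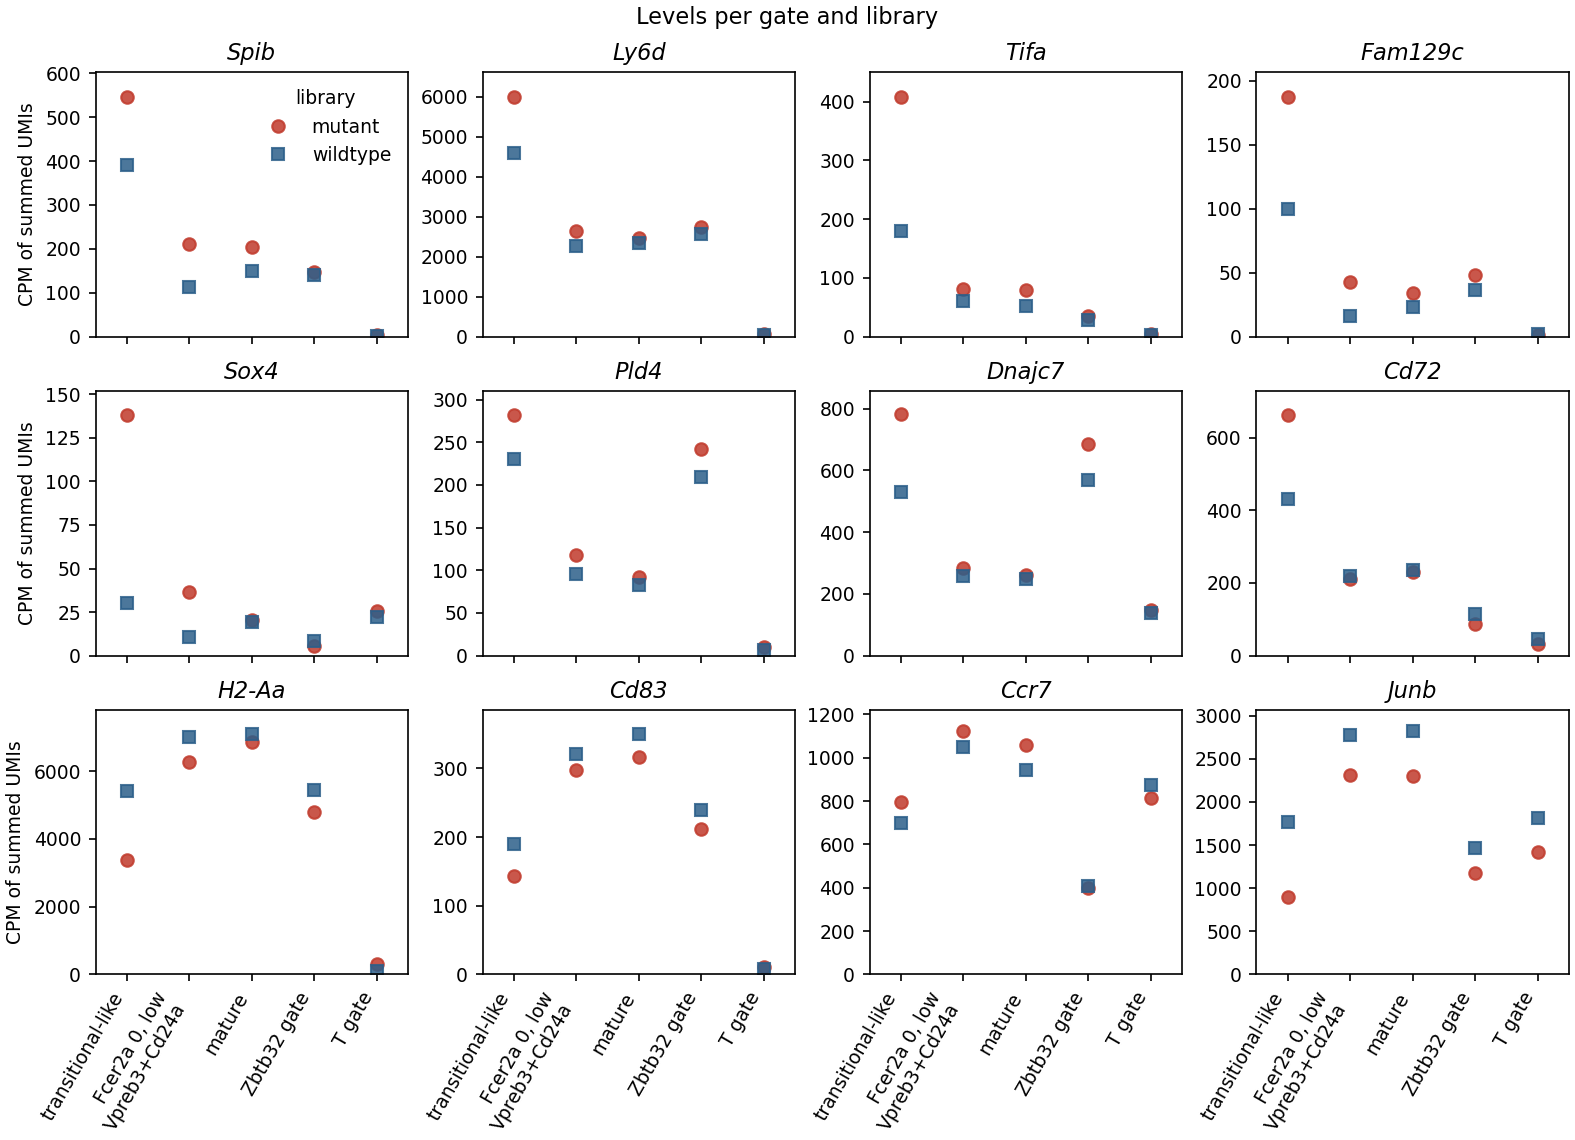
Level of 12 genes (CPM of summed UMIs, y axes from 0) in 5 gates (x axis) for the mutant (red circles) and wildtype (blue squares) library, 1 value per gate and library. Spib, Ly6d, Tifa and Fam129c are highest in the transitional-like barcodes of both libraries, while H2-Aa, Cd83 and Ccr7 are lower there than in mature barcodes.

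Few genes were 2-fold apart between members and mature barcodes in both libraries. Of 2056 genes with at least 50 UMIs over the members and mature barcodes of each library, 12 (0.584%) were at least 2-fold higher in both libraries and 7 (0.34%) at least 2-fold lower, with gate genes among them. When each ratio was divided by that of the median gene the counts were 8 and 9. They were 4 and 3 of 1040 genes with at least 100 UMIs, and 31 and 51 of 1834 genes when members needed 5 or more Vpreb3 and Cd24a UMIs. The 12 were Tifa, Spib, Pld4, Dnajc7, Pafah1b3, the gate genes Vpreb3 and Cd24a, and Smim20, Srrt, Slc1a5, Heatr6 and Cxxc5. The 7 included B4galnt1, Syngr2, Zfp318, Upf3b, Ccl4 and the gate gene Fcer2a. Within 1 library 2.89% of 2281 genes were at least 2-fold higher and 2.81% lower in the mutant, and 1.8% of 2221 were higher and 4.23% lower in the wildtype library. The median gene stood at 1.075 in the mutant library and 1.02 in the wildtype one, and 35.8% of genes were above 1 and 23.4% below 1 in both.

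Genes of the B cell receptor complex and its signalling were mixed. Cd72, an inhibitory co-receptor, was at 662 CPM (549 to 792) in mutant and 431 CPM (312 to 580.0) in wildtype members, against 229 and 236 CPM in mature barcodes, ratios of 2.89 (2.25 to 3.71) and 1.82 (1.27 to 2.56). Ptpn6, the phosphatase SHP-1 that such receptors recruit, had ratios of 1.78 (1.44 to 2.19) and 1.63 (1.21 to 2.17). Siglecg, an inhibitory sialic acid receptor, was higher in mutant members, 778 against 383 CPM (ratio 2.03 (1.64 to 2.51)), while in wildtype members it was at 421 against 359 CPM with an interval that included 1 (ratio 1.17 (0.825 to 1.63)). Of the 25 genes listed for the receptor complex and its signalling, 21 were measured in both libraries: 10 were above 1 in both, beside 35.8% of all measured genes, 3 were below 1 in both, and none was 2-fold apart in both, with median ratios of 1.21 and 1.07. The kinase gene Lyn had ratios of 1.75 (1.24 to 2.46) and 1.24 (0.664 to 2.15).

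Other named higher genes were not tested as a group. Pld4, a nuclease that degrades single-stranded nucleic acids in endolysosomes, was at 281 CPM (209.6 to 370.1) in mutant and 230.3 CPM (146 to 346) in wildtype members, against 91.9 and 82.8 CPM, ratios of 3.06 (2.06 to 4.53) and 2.78 (1.64 to 4.57). Unc93b1, the chaperone that brings nucleic acid-sensing Toll-like receptors to endosomes, had ratios of 1.76 (1.41 to 2.18) and 1.54 (1.17 to 2.01). Ifi30, a lysosomal thiol reductase, had 3.35 (2.46 to 4.55) and 1.99 (1.29 to 2.98), but its wildtype ratio was 0.823 when barcodes were thinned to 800 UMIs before the gates. Ctsb, the protease cathepsin B, had 1.89 (1.19 to 2.95) and 2.36 (1.16 to 4.50). Pld4 was not particular to members, since the barcodes with Zbtb32, Bhlhe41, Tppp3, Mzb1 or Atf3 held 242 and 209 CPM. The same gate held 686 and 568 CPM of the co-chaperone gene Dnajc7, which was at 784 and 531 CPM in members and 260.2 and 248 CPM in mature barcodes. Pafah1b3, a subunit of an enzyme that inactivates platelet-activating factor, showed the same pattern at 259 and 200.3 CPM in members, 235 and 192 CPM in that gate and 68.5 and 81.4 CPM in mature barcodes. Tifa, Spib and Cd72 were instead lower in that gate than in mature barcodes, with Tifa at 35.4 and 27.8 CPM.

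Survival genes went both ways. The receptors of BAFF and its relative APRIL were higher in members: Tnfrsf13c, the BAFF receptor, had ratios of 2.37 (1.80 to 3.10) and 1.57 (1.05 to 2.31), and Tnfrsf13b, the receptor TACI, had 1.74 (1.25 to 2.40) and 1.83 (1.19 to 2.73). Mcl1, which protects cells from apoptosis, was at 281 and 290.4 CPM in members against 164 and 156 CPM in mature barcodes, ratios of 1.72 (1.21 to 2.43) and 1.86 (1.19 to 2.82). Bcl2, another protector, was at 138 and 120.2 against 215 and 204 CPM, with 0.642 (0.401 to 0.988) and 0.588 (0.297 to 1.06), the wildtype interval including 1. Of 23 genes in the survival list 7 were measured in both libraries. Of these, 4 were above 1 in both and 2 below, beside 35.8% and 23.4% of all measured genes. Ifi27l2a, an interferon-induced gene, was at 1142 and 811 CPM in members, ratios of 1.78 (1.50 to 2.11) and 1.66 (1.29 to 2.12), beside 698 and 497 CPM of free RNA. The interferon list went both ways, with median ratios of 1.34 and 1.41 beside 1.07 and 1.02 for the median gene. Of its 24 genes 7 were measured in both libraries. Of these, 4 were above 1 in both and 3 below 1 in both, beside the same shares of all genes.

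Lower in members than in mature barcodes was RNA for antigen presentation by MHC class II. H2-Aa, 1 chain of the class II molecule I-A, was at 3372 CPM (3110.1 to 3651) in mutant and 5427 CPM (4979.7 to 5904) in wildtype members, against 6857 and 7084 CPM in mature barcodes, ratios of 0.492 (0.451 to 0.535) and 0.766 (0.700 to 0.837). Its partner chain H2-Ab1 had ratios of 0.523 (0.482 to 0.566) and 0.769 (0.705 to 0.838), and the invariant chain Cd74, which guides class II molecules to endosomes, 0.776 (0.751 to 0.802) and 0.877 (0.843 to 0.912). All 11 genes of the list were measured, with medians of 0.697 and 0.801. Of them, 10 were below 1 in both libraries, beside 23.4% of all measured genes. The eleventh, H2-DMb1, had ratios of 0.407 (mutant library) and 1.03 (wildtype library), though reads may be split with its close copy H2-DMb2, at 0.702 and 0.704. Per barcode, class II genes took a median of 3.76% of UMIs in mutant and 4.72% in wildtype members, against 5.63% and 5.73% in mature barcodes. The quartiles of mutant members (2.57% to 5.13%) and mutant mature barcodes (4.80% to 6.44%) overlapped only in part. Low class II RNA was not particular to members. The list summed to 36868 CPM in mutant and 46280 CPM in wildtype members, against 53970 and 55350 CPM in mature barcodes. The barcodes with Zbtb32, Bhlhe41, Tppp3, Mzb1 or Atf3 held 38451 and 42572 CPM.

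Genes listed for maturation and homing were more often lower than higher in members. Cd83, a surface protein of mature and activated B cells, was at 144 CPM (93.7 to 210.3) in mutant and 190.2 CPM (115 to 297) in wildtype members, against 316 and 349 CPM, ratios of 0.454 (0.289 to 0.685) and 0.545 (0.323 to 0.869). Ccr7, the receptor that draws cells to lymphoid tissue, had 0.751 (0.623 to 0.901) and 0.742 (0.572 to 0.950), and Klf2, a transcription factor of quiescent recirculating cells, 0.876 (0.807 to 0.951) and 0.889 (0.796 to 0.990). Of the 20 genes listed for mature follicular cells 18 were measured in both libraries. Of these, 10 were below 1 in both and 3 above 1 in both, beside 23.4% and 35.8% of all measured genes. The 3 above included Tnfrsf13c, given above with the survival genes. Of the 20 listed for homing and egress 12 were measured, 7 below and 1 above, beside the same shares. The 1 above was S1pr4, a receptor for the lipid that guides exit from tissues, at 1.51 and 1.34. The other named lower genes included B4galnt1, a ganglioside synthase, with 0.394 and 0.496, the chromatin organiser Satb1 with 0.551 and 0.544, the kinase gene Stk17b with 0.742 and 0.699, the RNA-binding protein gene Zfp36l1 with 0.663 and 0.601, and Shisa5, Ms4a4c and Syngr2. Syngr2 overlaps another gene on its strand and had 3 UMIs in wildtype members.

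Immediate early genes, which respond within minutes to stimulation and to cell handling, were as a list lower in members than in mature barcodes of both libraries. The list summed to 9355 CPM in mutant and 9973 CPM in wildtype members, against 11408 and 12302 CPM in mature barcodes. It was lower still in the barcodes with Zbtb32, Bhlhe41, Tppp3, Mzb1 or Atf3, at 6950 and 7692 CPM. Junb, a subunit of the transcription factor AP-1, was at 899.6 CPM (767 to 1049) in mutant and 1772 CPM (1521 to 2054) in wildtype members, against 2299 and 2821 CPM in mature barcodes, ratios of 0.391 (0.331 to 0.460) and 0.628 (0.536 to 0.733). Cd69, an early activation marker that also retains cells in tissue, had 0.542 (0.387 to 0.744) and 0.650 (0.418 to 0.973). Of 20 listed genes 14 were measured in both libraries, with medians of 0.558 and 0.712. Of these, 8 were below 1 in both and 1 above, beside 23.4% and 35.8% of all measured genes. The 1 above was Nfkbia, an inhibitor of NF-kB that the same factor induces, at 1.55 and 1.39.

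**Figure D3:**
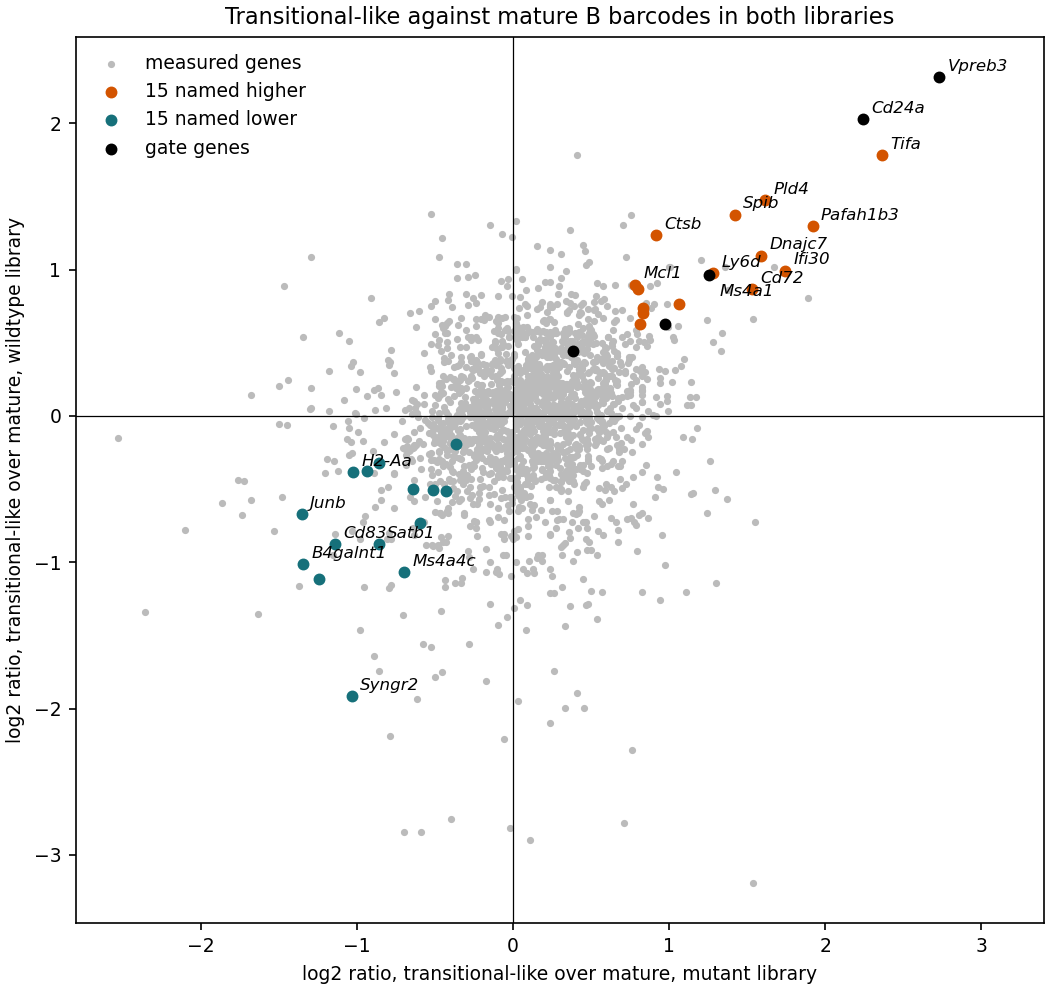
Log2 ratio of transitional-like to mature barcodes in the mutant (x axis) and wildtype (y axis) library for the 2056 measured genes (grey), with the 15 higher (orange) and 15 lower (teal) genes named by rule and the gate genes (black). The named genes were chosen for standing off 0 in the same direction in both libraries, and Vpreb3, Cd24a and Tifa are farthest to the upper right.

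Most B cell transcription factors were less than 2-fold apart, as were most measured genes. Among 31 listed B cell transcription factors 22 were measured in both libraries. Of these, 6 were above 1 in both and 6 below 1 in both, beside 35.8% and 23.4% of all measured genes. Spib was the single one at least 2-fold apart in both. Ebf1, which sets up the B lineage programme, was at 1.25 and 1.29, Pax5, which maintains it, at 0.880 and 1.12, and Mef2c, which acts in mature B cell responses, at 0.741 and 0.798. Irf8 differed between the libraries, with ratios of 1.66 (1.31 to 2.09) for mutant barcodes and 0.904 (0.640 to 1.25) for wildtype ones. RNA of earlier bone marrow stages was at or near 0: Vpreb1, Vpreb2, Igll1, Dntt, Rag2, Erg, Arpp21, Cd34 and Kit had 0 UMIs in the members of both libraries, and Rag1 had 1 in the mutant library. Myb, another early gene, had 9 UMIs in mutant and 0 in wildtype members, against 4 and 5 in mature barcodes. Cycling genes were also scarce, with Mki67 at 0 UMIs and Top2a at 1 and 0. Mvk, the mutated gene, had 1 UMI in the members of each library, so its level could not be compared, and none of the 23 listed sterol synthesis genes reached 50 UMIs.

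Members differed among themselves along the Vpreb3 and Cd24a signal, and the Ly6d step at the gate was larger in the mutant library. In the mutant library, barcodes without Fcer2a just outside the gate (2 UMIs of the pair, 68 barcodes) had 2966 CPM (2661 to 3295) of Ly6d. Those just inside (3 UMIs, 45 barcodes) had 4822 CPM (4329 to 5356), while barcodes with 0 and 1 UMIs had 2507 and 2723 CPM. The barcodes with 2 and 3 UMIs had 531 and 804 CPM of Spib, Tifa, Fam129c and Sox4 together. In the wildtype library the Ly6d values just outside (61 barcodes) and just inside (27 barcodes) were closer, at 2581 and 3455 CPM. The other 4 genes together had 203 and 377 CPM in the wildtype library. There the larger Ly6d step lay further in, from 2757 CPM at 4 UMIs to 9002 CPM at 5 to 6, with 11 barcodes each.

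Members with 5 or more Vpreb3 and Cd24a UMIs had marker levels that differed between the libraries by less than counting error. Ly6d was at 6891 CPM in the 39 mutant and 7961 CPM in the 17 wildtype barcodes, a ratio of 0.866 (0.737 to 1.02). Spib, Tifa, Fam129c and Sox4 together were at 1712 and 1454 CPM, a ratio of 1.18 (0.820 to 1.72). The mutant levels include the member with many NK UMIs. It held 5830 of the 67192 UMIs and 0 UMIs of all 5 genes, so it lowers these levels. In both libraries members of this range held far less Cd83 than mature barcodes (0 CPM, with an upper limit of 54.9 CPM, and 34.6 CPM, against 316 and 349 CPM). Ribosomal protein genes took a median of 16.8% and 18.2% of their UMIs, against 26.6% and 27.7% in mature barcodes.

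Members with 3 or 4 UMIs differed between the libraries. The 38 wildtype barcodes had 3226 CPM of Ly6d, nearer to the 2337 CPM of wildtype mature barcodes than to the members with more UMIs, 2226 CPM of Junb, and a median of 27.8% ribosomal UMIs. The 69 mutant barcodes had 5465 CPM of Ly6d, 1211 CPM of Junb and 22.1% ribosomal UMIs. The mutant to wildtype ratio in this range was 1.69 (1.45 to 1.98) for Ly6d and 2.60 (1.71 to 4.08) for the other 4 marker genes together. The higher mutant level of these 4 genes was not particular to members. Without Fcer2a, their ratio was 2.61 (1.56 to 4.57) at 2 UMIs of the pair and 1.71 at 0 and at 1. With Fcer2a it was 1.47 (1.18 to 1.83) at 2 or fewer UMIs but 0.869 (0.453 to 1.63) at 3 or more. The Ly6d ratio at 2 UMIs without Fcer2a was 1.15 (0.974 to 1.36). In the same 2 measures the 38 wildtype barcodes, at 3226 and 394 CPM, were close to the 36 wildtype barcodes with Fcer2a and 3 or more UMIs of the pair, at 3023 and 368 CPM. The mutant barcodes, at 5465 and 1026 CPM, stood above the 29 mutant barcodes with Fcer2a, at 3641 and 319.7 CPM. Whether mature cells whose Fcer2a RNA was not captured are among the members was not tested. Members with 3 or 4 UMIs are 69 of 108 mutant and 38 of 55 wildtype members. In the wildtype library the transitional-like name therefore rests mainly on the 17 members with 5 or more UMIs. The shares of that range given above (3.31% and 1.59%, ratio 2.08) leave out members with 3 or 4 UMIs. They keep the mutant member with many NK UMIs.

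**Figure D4:**
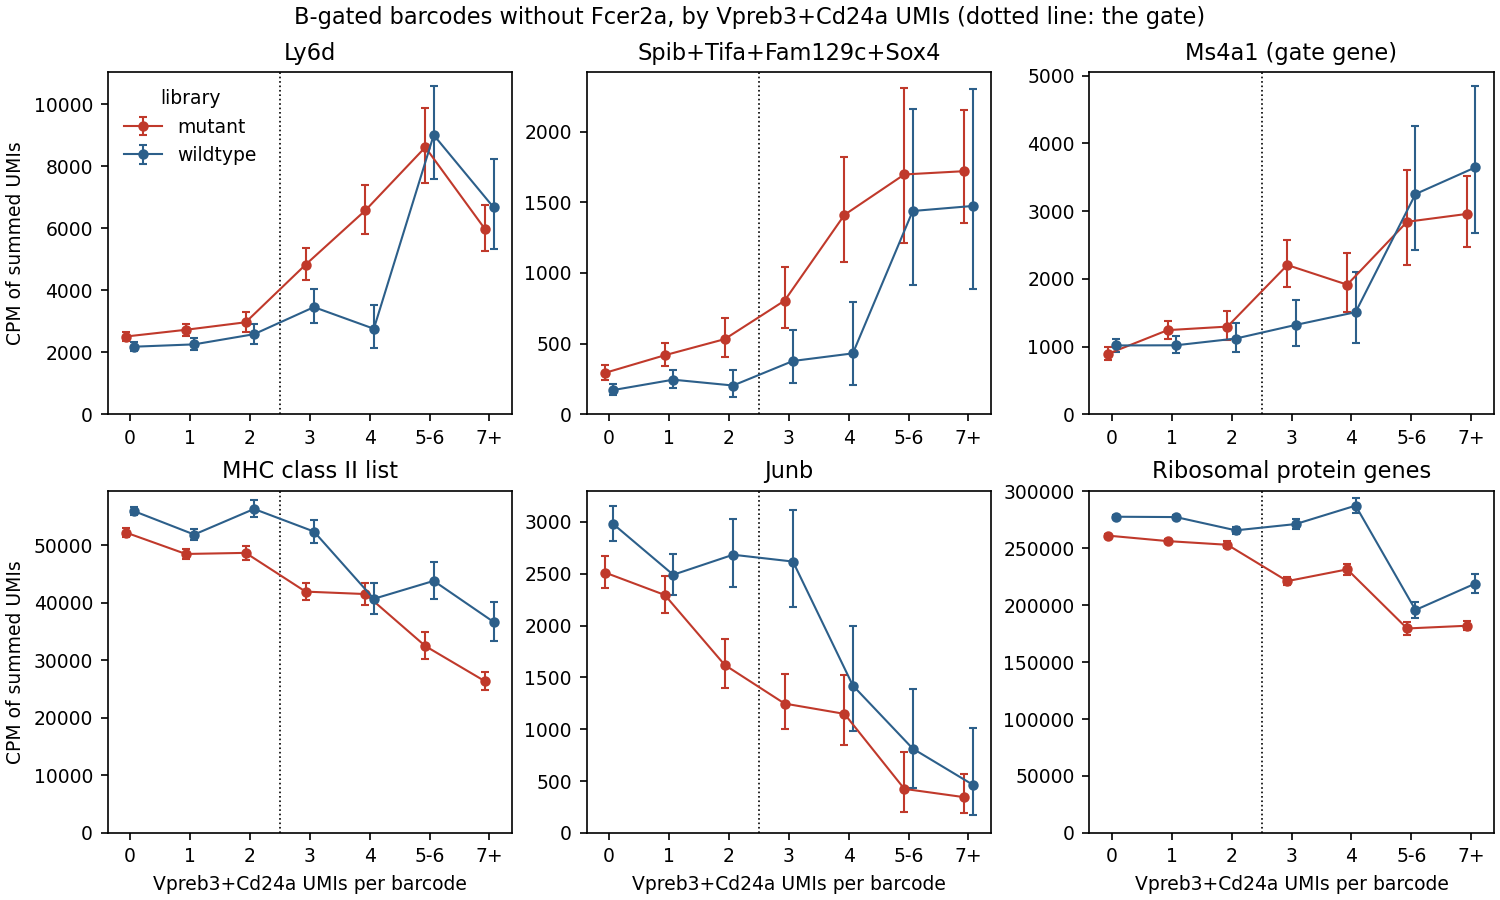
Levels (CPM of summed UMIs, y axes from 0) in B-gated barcodes without Fcer2a, grouped by the Vpreb3 and Cd24a UMIs of the barcode (x axis; members lie right of the dotted line), for the mutant (red) and wildtype (blue) library with 95% Poisson intervals. Ly6d was highest at 5 to 6 UMIs in both libraries, at 8609.7 and 9002 CPM, and was 5961 and 6669 CPM at 7 or more. The last value rests on 6 wildtype barcodes, 1 of which held 4039 of their 12895 UMIs and 8 Ly6d UMIs. In the mutant library, 1 barcode with 0 Ly6d UMIs held 5830 of the 43614 UMIs at 7 or more. The 4 other marker genes together go from 293 to 1719.6 CPM in the mutant and from 171 to 1473 CPM in the wildtype barcodes, while class II, Junb and ribosomal RNA are lower at 7 or more UMIs than at 0.

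Between the libraries, class II RNA was lower in mutant than in wildtype members. H2-Aa had a mutant to wildtype ratio of 0.621 (0.553 to 0.699) in members against 0.968 (0.930 to 1.01) in mature barcodes, H2-Ab1 0.660 (0.590 to 0.738) against 0.971 (0.934 to 1.01), H2-Eb1, the beta chain gene of I-E, 0.639 (0.547 to 0.748) against 0.927 (0.877 to 0.981), and Cd74 0.870 (0.830 to 0.913) against 0.984 (0.966 to 1.003). Of the 789 genes with at least 50 UMIs over the members of both libraries 52.7% were above 1 and 47.3% below 1 (49.6% and 50.4% in mature barcodes), while 10 of 10 measured class II genes were below 1 in members, with a median of 0.771 beside 0.968 in mature barcodes. By step of the Vpreb3 and Cd24a signal, the summed class II list had a ratio of 0.801 (0.759 to 0.844) in members with 3 UMIs, 1.02 (0.942 to 1.11) in those with 4, of which the wildtype library has 11, and 0.701 (0.652 to 0.755) in those with 5 or more, so no lower level was seen at 4 UMIs. The mutant member with many NK UMIs is among those with 5 or more, at 1.94% class II UMIs beside 2.85% for that range. The lower class II level in the mutant library was not particular to members. Barcodes without Fcer2a just outside the gate (2 UMIs) had 0.864 (0.833 to 0.897), and barcodes with Fcer2a had 0.862 (0.821 to 0.905) with 3 or more UMIs of the pair and 0.736 (0.663 to 0.816) with 5 or more (5 mutant and 9 wildtype barcodes), but 0.986 (0.972 to 1.002) with 2 or fewer. Free RNA went the other way for the 4 genes, with mutant to wildtype ratios of 1.17, 1.37, 1.21 and 1.33.

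Single genes 2-fold apart between the libraries were few. Of the 789 genes 15 (1.9%) were at least 2-fold higher and 6 (0.76%) at least 2-fold lower in mutant members, and of 3367 genes in mature barcodes 0.653% were higher and 0.564% lower. With a minimum of 100 UMIs the counts in members were 3 and 1 of 353 genes. Arl5c, a small GTPase of the ARF family, was at 331 CPM (253 to 426) in mutant and 80.1 CPM (34.6 to 158) in wildtype members, a ratio of 4.13 (1.97 to 10.01) against 1.08 (0.785 to 1.47) in mature barcodes. Herpud1, which acts in degradation of proteins from the endoplasmic reticulum, had 2.41 (1.50 to 4.02) against 1.34 (1.07 to 1.68). Mrps21, a mitochondrial ribosome protein, had 47 and 8 UMIs and a ratio of 3.24 (1.52 to 7.94). Plac8, listed here with genes of marginal zone and B1 cells, had 1.89 (1.42 to 2.53) against 1.18 (1.02 to 1.35), and Siglecg 1.85 (1.30 to 2.68) against 1.07 (0.893 to 1.28). Tifa had 2.27 (1.34 to 4.03), or 1.76 (0.868 to 3.95) when only members with 5 or more Vpreb3 and Cd24a UMIs were compared. The remaining named higher genes were Arhgdia (2.07), Bin1, which bends membranes (2.54), and the translation factor gene Eif5 (2.34), with 10 to 21 wildtype UMIs each. All 10 named genes rest on 64 or fewer wildtype UMIs.

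Lower in mutant members were also Hnrnpu, an RNA-binding nuclear scaffold protein, at 144 CPM (93.7 to 210.3) against 391 CPM (278 to 534) (ratio 0.367 (0.215 to 0.619)), and Junb with 0.508 (0.408 to 0.632), which was lower in mature barcodes too (0.815 (0.762 to 0.872)) and in free RNA (0.697). Its partner Jund had 0.722 (0.586 to 0.892) against 0.920 (0.842 to 1.004) in mature barcodes. The tubulin gene Tuba1b had 0.498 (0.288 to 0.858), on 28 and 31 UMIs. Apoe, a lipid carrier, had 36 UMIs in 11 mutant members and 41 in 17 wildtype members, a ratio of 0.484 (0.301 to 0.776), and 12 of the mutant UMIs were in 1 barcode. Ribosomal protein genes as a whole took a median of 19.8% of UMIs in mutant and 26.8% in wildtype members, against 26.6% and 27.7% in mature barcodes.

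**Figure D5:**
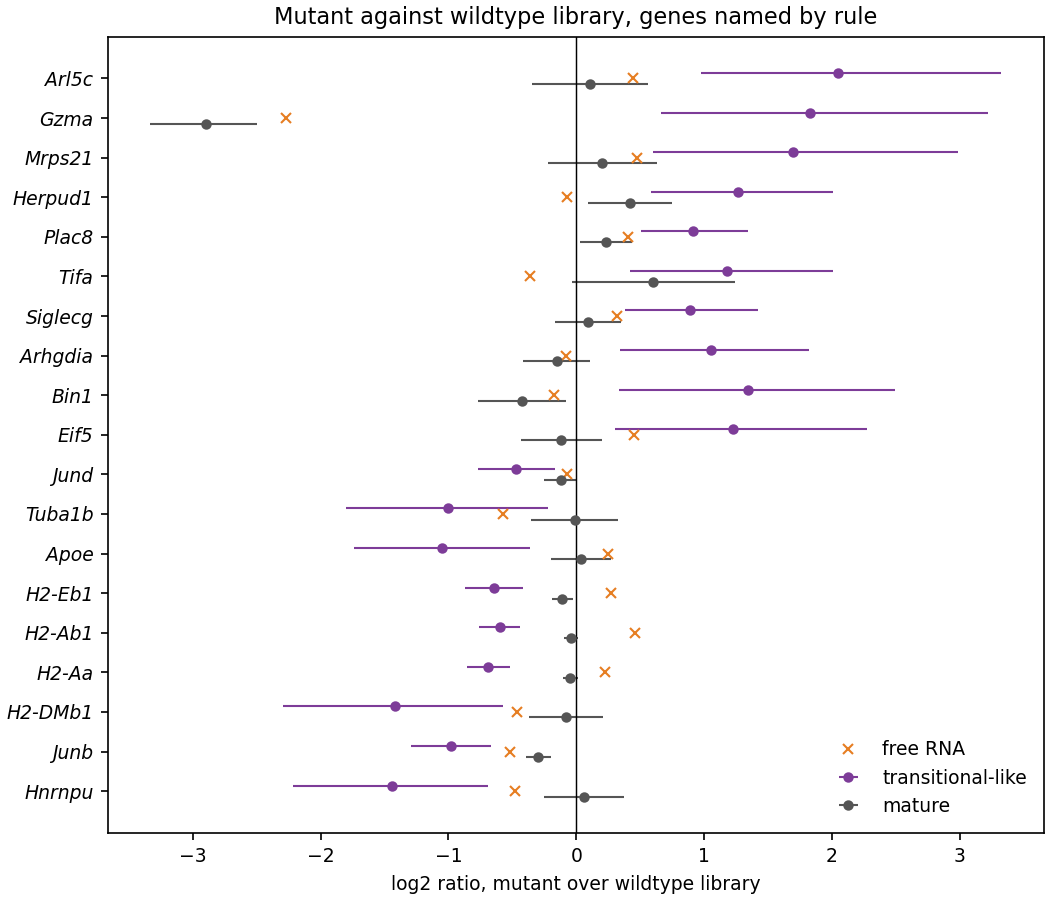
Log2 ratio of the mutant to the wildtype library (x axis) for the 10 higher and 9 of the 10 lower genes named by rule (y axis) in transitional-like barcodes (purple) and mature barcodes (grey), with exact 95% intervals, and in free RNA (orange crosses). The class II genes lie below 0 in transitional-like barcodes and near 0 in mature ones, and Gzma and Bin1 lie on opposite sides of 0 in the 2 gates.

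RNA of other lineages was present at low levels in members and its part in these ratios was not tested. The 8 NK markers summed to 949 CPM in mutant and 881 CPM in wildtype members, with 123 of 172 mutant UMIs in the 1 member named above. Gzma, the NK protease granzyme A, shows its effect: its mutant level was 248 CPM with that member and 57.0 CPM without it, against 70.1 CPM in wildtype members. T cell markers summed to 254 and 320.4 CPM, monocyte markers to 188 and 150.2 CPM, and platelet markers to 88.3 and 20.03 CPM. Haemoglobin RNA led the difference between the libraries, with Hbb-bs at 1799 CPM in mutant and 160.2 CPM in wildtype members beside 24804 and 1876 CPM of free RNA. Markers of plasmacytoid dendritic cells, which share Spib and Pld4 with members, were nearly absent: the 6 markers had 0 UMIs in mutant and 1 in wildtype members.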

How the data were processed

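Peripheral blood mononuclear cells were profiled with 10x Chromium 3' v2 libraries, 1 per genotype. The deposited values are raw UMI counts, whole numbers for 27998 genes and the complete list of 737280 barcodes, made by the authors with Cell Ranger 2.1.1 and the build mm10, per the submitters' processing notes. How that software treated reads shared by overlapping or near-identical genes is not given in the sources used here.

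Gates were applied to the counts of each barcode in Python 3.11.15 (numpy 2.4.6, scipy 1.17.1, pandas 2.3.3), with no clustering. Summed UMIs of a gate in 1 library were scaled to CPM. A gene was measured if it had at least 50 UMIs over the 2 sides compared, and was counted as 2-fold apart by its ratio alone. Shares carry exact Clopper-Pearson, CPM exact Poisson and ratios exact conditional 95% intervals. PCR duplicates are removed by the UMIs, and the intervals cover counting error only. With 1 library per genotype no test was made, and members were chosen on these counts, so their contrast with mature barcodes is a description. Free RNA is that of barcodes with at most 20 UMIs (395464 mutant and 460573 wildtype UMIs). Doublets were scored with Scrublet (scanpy 1.11.5, 0.8% expected per 1000 barcodes), and no barcode was removed. The interval code was checked on simulated counts.

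Genes were named by rule: the gate genes and given markers; the 15 higher and 15 lower genes against mature barcodes with intervals off 1 in the same direction in both libraries, ordered by the weaker interval bound; the 10 higher and 10 lower genes between the libraries by interval bound; up to 6 genes of each list; and Mvk. Gate, ribosomal, mitochondrial, haemoglobin and provisionally named genes were left out of the ranked sets. The other genes named as 2-fold apart in both libraries, or beside a list count, were chosen after their values were seen. Some genes that the rules name are not reported here. Members and gene lists were chosen with earlier results of these data known. The settings compared were thinning to 800 UMIs, doublet removal, other gate limits, other minimums, mean CPM per barcode, median centring and free RNA subtraction. A further 3 were added after seeing the data: removal of barcodes with more than 5 other-lineage UMIs, a mature gate with at most 2 Vpreb3 and Cd24a UMIs, and removal of barcodes found in both libraries.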

Additional observations from a re-analysis of the deposited data

Results flagged for a closer look

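The mutant to wildtype ratio lay on opposite sides of 1 in transitional-like and mature barcodes, with both intervals off 1, for 2 of the genes named by rule, and in neither case was the difference tested. Gzma, granzyme A, was at 3.54 in transitional-like barcodes against 0.134 (0.0995 to 0.178) in mature ones, on 45 mutant and 7 wildtype UMIs. Of the mutant UMIs 35 lay in 1 barcode, without which the level was 57.0 CPM. Bin1, which encodes a membrane-bending protein, was at 2.54 (1.26 to 5.64) in transitional-like barcodes against 0.746 (0.586 to 0.948) in mature ones. Its 46 mutant UMIs were spread over 35 barcodes and its 10 wildtype UMIs over 8.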

How the results depend on the processing

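No paired analysis was possible because each genotype is 1 library with no replicate number, and for the same reason no replicate could be left out. The larger mutant share of transitional-like barcodes kept its direction in all settings run, with ratios from 1.38 (at least 2 Vpreb3 and Cd24a UMIs) to 2.08 (at least 5). The shares moved to 5.07% and 2.80% with thinning to 800 UMIs, 3.31% and 1.59% with at least 5 and 15% and 10.9% with at least 2 UMIs of the pair, 7.31% in the mutant with Vpreb3 alone (at least 2 UMIs), and 6.93% in the wildtype library with Fcer2a at most 1.

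Counts of 2-fold genes changed with the setting, as did the number of genes measured. Against mature barcodes, in place of 12 higher and 7 lower of 2056, they were 31 and 51 of 1834 with at least 5 UMIs of the pair, 6 and 2 of 2303 with at least 2, 5 and 1 of 1028 with Fcer2a at most 1, 4 and 3 of 1040 with a minimum of 100 UMIs, and 372 and 1086 of 10100 with a minimum of 1. The higher count was 6 of 422 with thinning and 5 of 1400 with 1500 or more UMIs per barcode. The lower count was 12 with Vpreb3 alone (of 1973) and after free RNA subtraction (of 2056), and 4 of 1983 without doublets. Mutant against wildtype, in place of 15 and 6 of 789, they were 3 and 2 of 261 with at least 5 UMIs of the pair, 6 and 2 of 562 with Vpreb3 alone, 1 and 2 of 164 with thinning, 4 and 1 of 474 with 1500 or more UMIs, 3 and 1 of 353 with a minimum of 100, 2826 and 1449 of 9628 with a minimum of 1, and 23 higher of 1434 with at least 2 UMIs of the pair. More genes were measured in some of these settings and fewer in others, and the cause of the changed counts was not tested.

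Direction changed for 10 genes whose ratio was 2-fold or had an interval off 1, and the cause was not tested; for Gzma, 35 of its 45 mutant UMIs lie in 1 barcode. Its mutant to wildtype ratio was 0.78 without doublets, 0.754 without barcodes rich in other-lineage UMIs, 0.695 with at least 2 UMIs of the pair and 0.164 with Vpreb3 alone, and its ratio to mature barcodes in the mutant library 0.713 with thinning and 0.507 with Vpreb3 alone. With thinning, the ratios of Eif5 and Ifi30 to mature barcodes in the wildtype library went to 1.33 and 0.823, and between the libraries Bin1 and Dnajc7 went to 0.962, Ly6d to 0.917 and Tuba1b to 1.68. With at least 5 UMIs of the pair, Cd79b was at 0.86, Dnajc7 at 0.998, Ifi30 at 0.702, Ly6d at 0.866 and Ms4a1 at 0.851 between the libraries. With Fcer2a at most 1, Syngr2 was at 0.934. Depth limits Sox4, Cd93 and Fam129c in wildtype members, which hold 3, 0 and 10 UMIs.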
